A study of Mus musculus with 36 samples.

Results

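The 10 genes described here encode inflammatory chemokines, and they were taken by name from count tables of 49568 genes: Cxcl9, Cxcl10, Cxcl2, Cxcl16, Ccl2, Ccl7, Ccl3, Ccl4, Ccl5 and Ccl9. All 10 were listed in both tables. The counts came from RNA-seq of RAW264.7 cells, a transformed mouse macrophage line, in 36 libraries. Each of 2 series, named for its cytokine, held a PBS arm, a 65–79*SE arm and a 65–79*PE arm of 6 libraries. 65–79*SE is a peptide with the shared epitope of HLA-DRB1 alleles tied to rheumatoid arthritis risk, and 65–79*PE is its counterpart with the protective epitope. Both peptides were given at 100 µg/ml for 72 h, together with a cytokine at 5 ng/ml, either IFNγ, which drives the pro-inflammatory M1 state, or IL-4, which drives the repair-type M2 state. Every arm was the same unedited line, so the libraries are replicate cultures of 1 line and not animals. The question was how each peptide shifts macrophage genes, here the chemokine ligands.

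Neither the labels nor the methods settle whether PBS cells also got the cytokine. PBS libraries carried neither response: the IFNγ targets H2-Aa (MHC class II) and Gbp2 (a guanylate-binding protein) stood at 0.0935 to 0.140 and 0.333 to 0.448 CPM in the first 3 PBS replicates beside IFNγ arms, and Arg1 (arginase), an IL-4 target, at 0 to 0.0372 CPM in those beside IL-4 arms. CPM here are counts per M counts after TMM scaling. A contrast against PBS therefore holds cytokine and peptide together, and the comparison of 65–79*SE with 65–79*PE is the one made under the same cytokine label.

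Libraries that went against their label came from one group. Replicates 1–3 and 4–6 carry different naming schemes, called label sets below, and the study describes separate experiments. In replicates 4–6 of the IFNγ series, the libraries labelled 65–79*SE showed no IFNγ response. H2-Aa ran from 0 to 0.191 CPM there, beside 0.0236 to 0.276 in PBS and 416 to 557 in 65–79*PE, and Gbp2 from 0.762 to 0.883, beside 0.577 to 0.898 and 118 to 153. None of the 8 IFNγ check genes was called against PBS in these libraries with edgeR, where 1, Cd274, had an unadjusted p under 0.05, and all 8 were called in 65–79*SE replicates 1–3 and in both sets of 65–79*PE. Results are given by label set for that reason, and for all 6 replicates afterwards.

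Libraries held 20.67 to 63.16 M counts with IFNγ and 17.05 to 30.64 M with IL-4. A count of 0 allows up to 3 counts, equal to 0.0475 to 0.145 CPM and 0.0979 to 0.176 CPM respectively, for counting error only. Protein-coding genes held 85.1 to 85.7% of the counts in IFNγ replicates 1–3 and 62.1 to 69.8% in replicates 4–6, and 95.4 to 97.5% and 78.6 to 87.4% in the IL-4 series. The 8 macrophage markers summed to 3854 to 11512 CPM in every library of both series, and with IFNγ the sum moved with the arms. It was 7052 to 8155 CPM in PBS, 5506 to 5963 in 65–79*SE and 4850.0 to 5019 in 65–79*PE of replicates 1–3, and 4227 to 5760.05, 7240.05 to 8179 and 6086 to 6882 CPM in the same order in replicates 4–6, and its part in the results was not tested. Markers of T and B cells summed to at most 0.264 CPM, those of fibroblasts and endothelium to at most 1.54 CPM and those of neutrophils to at most 1.10 CPM. Single markers within these sums moved with an arm: Pdgfra (fibroblasts) was at 0.523 to 1.25 CPM in 65–79*SE of IFNγ replicates 1–3 beside 0.224 to 0.280 CPM in PBS, and Mpo (neutrophil granules) at 0.451 to 0.859 CPM beside 0.0312 to 0.168 CPM, and their part in the results was not tested. In bulk RNA, fewer expressing cells and less RNA per cell cannot be told apart.

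Chemokines are small secreted proteins that steer leukocytes along a gradient by binding G protein-coupled receptors, and macrophages are a main source of them in inflamed joints and other tissues. IFNγ switches on Cxcl9 and Cxcl10, while NF-κB drives Cxcl2, Ccl2, Ccl3, Ccl4 and Ccl5 after microbial or cytokine signals. IL-4 acts through STAT6 and is known to favour a different set of ligands.

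The members lie in a few gene clusters. Cxcl2, Cxcl9 and Cxcl10 are on chromosome 5, where 18.6 kb separate Cxcl9 (chr5:92321347-92328079) from Cxcl10 (chr5:92346638-92348889), both on the minus strand. The other 7 are on chromosome 11, where 8.26 kb separate Ccl2 from Ccl7 and 13.2 kb separate Ccl3 from Ccl4. Cxcl10 lies inside Art3, Cxcl16 overlaps Zmynd15 and Ccl2 lies inside Gm17268, each on the opposite strand. Since the strand setting of the counting is not given in the sources used here, reads of such partners could not be told apart from the members' own, although Gm17268 had 0 counts. Positions are of GRCm38.

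Promoter sequence was in the RefSeq tables for 5 of the 10 members, on GRCm38.p6. The 250 bases before the start are printed for the 4 whose values differ most in kind below: Cxcl9 and Cxcl10, the IFNγ-linked pair, Cxcl2, which moved in both series, and Ccl9, which was called lower with 65–79*PE and IFNγ. Bases read 5′ to 3′ along the gene's strand, and capitals mark matches to the motifs searched.
Cxcl9, minus strand, chr5:92328080-92328329: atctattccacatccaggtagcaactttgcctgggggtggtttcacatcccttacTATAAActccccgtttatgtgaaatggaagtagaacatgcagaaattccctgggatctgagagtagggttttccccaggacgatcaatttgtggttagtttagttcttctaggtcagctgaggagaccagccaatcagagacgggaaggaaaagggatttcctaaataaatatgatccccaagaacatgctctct
Cxcl10, minus strand, chr5:92348890-92349139: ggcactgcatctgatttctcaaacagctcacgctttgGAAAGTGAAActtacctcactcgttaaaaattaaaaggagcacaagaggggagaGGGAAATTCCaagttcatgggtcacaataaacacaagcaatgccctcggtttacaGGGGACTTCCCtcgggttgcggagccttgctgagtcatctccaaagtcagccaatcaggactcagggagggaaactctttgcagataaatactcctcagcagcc
Cxcl2, plus strand, chr5:90903649-90903898: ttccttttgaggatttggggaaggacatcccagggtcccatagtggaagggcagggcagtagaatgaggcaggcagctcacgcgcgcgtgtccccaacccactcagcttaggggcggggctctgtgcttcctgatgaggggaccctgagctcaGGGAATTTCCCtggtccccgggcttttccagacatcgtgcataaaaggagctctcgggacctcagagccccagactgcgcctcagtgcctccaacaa
Ccl9, minus strand, chr11:83578637-83578886: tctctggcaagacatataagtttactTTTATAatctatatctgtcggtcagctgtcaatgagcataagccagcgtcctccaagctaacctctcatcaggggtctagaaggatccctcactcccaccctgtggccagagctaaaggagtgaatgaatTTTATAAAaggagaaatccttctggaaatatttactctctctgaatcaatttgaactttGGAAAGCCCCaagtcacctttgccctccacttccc
The motifs were the GAS element TTCNNNGAA, a STAT6 site with 4 free bases between TTC and GAA, the ISRE core with 2 free bases between 2 runs of GAAA, the NF-κB consensus and the TATA box TATAAA, searched on both strands in windows of 300 bases. Cxcl10 holds an ISRE core 213 to 204 bases before the start and NF-κB matches at 159 to 150 and, overlapping on both strands, at 104 to 94 bases. Cxcl2 holds overlapping NF-κB matches at 97 to 87 bases. Ccl9 holds an NF-κB match at 35 to 26 bases, a TATA box match at 224 to 219 bases and a pair of overlapping ones at 94 to 87 bases, and Cxcl9 a TATA box match at 195 to 190 bases. No GAS or STAT6 letters were found in these windows, and the window of Ccl3 held none of the 5 motifs. Of 32851 RefSeq promoters of that length, 8.30% held the GAS element, 6.95% the STAT6 site, 3.44% the ISRE core, 8.46% the NF-κB consensus and 13.6% a TATA box, so a match is a description of the sequence and not a site shown to act.

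**Figure D1:**
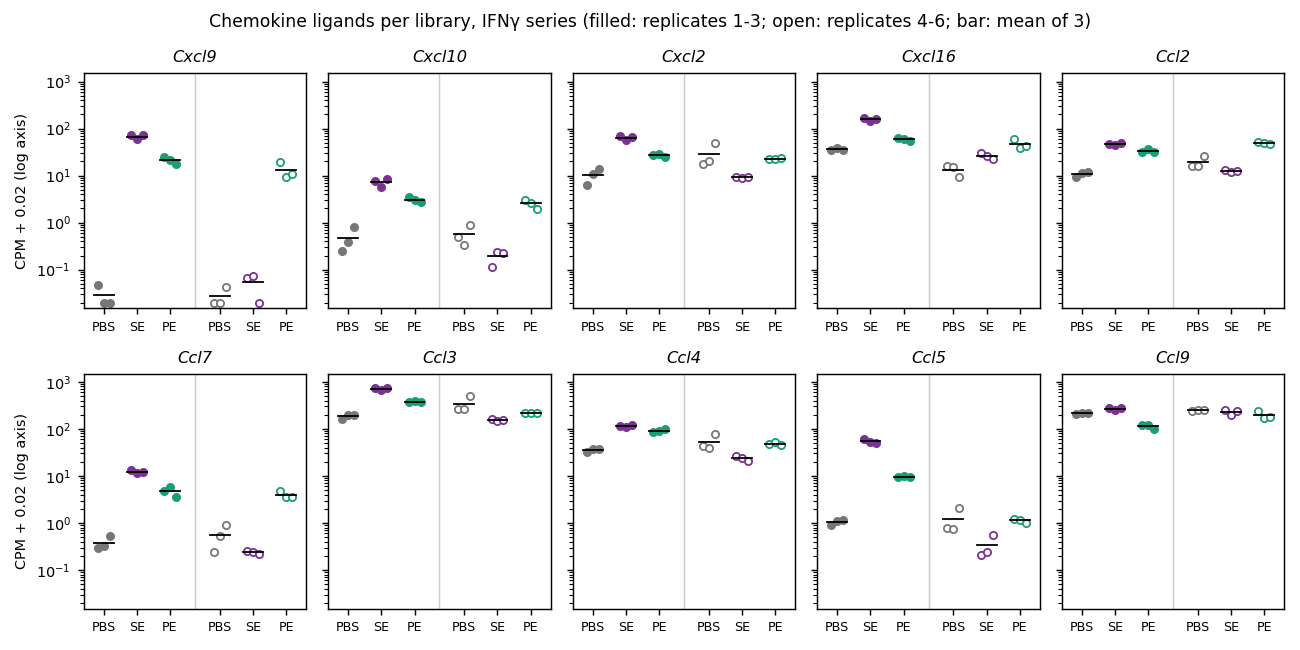
Level of each of the 10 chemokine ligands in every library of the IFNγ series, as CPM + 0.02 on a log axis, by arm. Filled points are replicates 1–3, open points replicates 4–6 and bars the mean of 3. Open 65–79*SE points sit with or under PBS for every member but Cxcl16, while filled 65–79*SE points are the highest of their set throughout.

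With IFNγ, in replicates 1–3, 9 of the 10 chemokine ligands rose in 65–79*SE against PBS, and the 10th, Ccl9, was higher by less than the 1.5-fold required. The largest changes were in Cxcl9, Ccl5, Ccl7 and Cxcl10. Calls rest on edgeR's quasi-likelihood test, with a Benjamini-Hochberg adjusted p under 0.05 over all genes tested and a change of over 1.5-fold. Log2 values are given ± their standard error from that fit. In this contrast 12.6% of all genes were called higher (22.8% in either direction). With 65–79*PE, 9 of 10 members rose and Ccl9 fell, where 10.3% of all genes were called higher and 9.54% lower (19.8% in either direction). The members' median log2 fold change was 2.38 for 65–79*SE and 1.54 for 65–79*PE, beside -0.01 and 0.0019 over all genes. Both contrasts share the PBS libraries. Between the peptides, 8 of 10 members were called higher in 65–79*SE than in 65–79*PE, with a median of 1.23, where 4.48% of all genes were called higher (6.08% in either direction). Ccl2 and Ccl4 passed the adjusted p but not the fold. Leaving out any 1 replicate of the 3 left these counts at 9, 10 and 8.

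Replicates 4–6 differed by label. In the libraries labelled 65–79*SE, 4 members were called against PBS with edgeR, Cxcl16 higher and Cxcl2, Ccl3 and Ccl4 lower, where 0.72% of all genes were called in either direction. DESeq2 called 5 members, with Ccl2 lower, and 318 of all genes. All 4 edgeR calls were lost without replicate 5 (adjusted p = 0.245 for each with edgeR), where 0 of all genes were called, beside 112 with it. In 65–79*PE, 6 members were called against PBS, Cxcl9, Cxcl10, Cxcl16, Ccl2 and Ccl7 higher and Ccl3 lower, beside 10.8% of all genes. DESeq2 called 5 members there, without Ccl3, and 1699 of all genes. Against 65–79*PE, 8 members were called lower in the libraries labelled 65–79*SE, all but Ccl3 and Ccl9, beside 7.9% of all genes called lower (13.8% in either direction). One PBS library stood apart in this set: replicate 6 was the highest of the 3 PBS libraries for 8 of the 10 members, and values without it are given where they change a call or a sign.

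Cxcl9 binds CXCR3 on activated T cells and NK cells and is among the most IFNγ-dependent of all chemokines. Its level in replicates 1–3 was 0.0280, 0 and 0 CPM in PBS, 72.0, 59.3 and 72.1 CPM in 65–79*SE and 25.3, 21.8 and 18.04 CPM in 65–79*PE. The arms did not overlap, and PBS held at most 1 count in any library. Against the floor of 3 counts per library, Cxcl9 was at least 757-fold higher in 65–79*SE and at least 243-fold higher in 65–79*PE than in PBS. 65–79*SE was higher than 65–79*PE by 1.63 ± 0.11 (adjusted p = 6.36e-07) on the log2 scale. Cxcl9 in replicates 4–6 was at 0, 0 and 0.0236 CPM in PBS, at 0.0477, 0.0552 and 0 CPM in the libraries labelled 65–79*SE and at 19.7, 9.46 and 11.0 CPM in 65–79*PE. Both PBS and the libraries labelled 65–79*SE were thus under the floor, so no fold is given between them. 65–79*PE was at least 165-fold higher than PBS and at least 98.1-fold higher than the libraries labelled 65–79*SE.

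Cxcl10, the other CXCR3 ligand of the pair, was lower in level but followed the same order. Its replicates 1–3 held 0.224, 0.364 and 0.779 CPM in PBS, 7.56, 5.66 and 8.43 CPM in 65–79*SE and 3.43, 2.98 and 2.72 CPM in 65–79*PE. Every 65–79*SE library was above every 65–79*PE library, and both were above PBS. The log2 fold change was 4.02 ± 0.29 (adjusted p = 6.44e-08) for 65–79*SE against PBS, 2.79 ± 0.31 (adjusted p = 6.23e-06) for 65–79*PE against PBS and 1.23 ± 0.22 (adjusted p = 0.00133) between the peptides. Its values in replicates 4–6 were 0.487, 0.315 and 0.875 CPM in PBS, 0.0953, 0.221 and 0.203 CPM in the libraries labelled 65–79*SE and 3.08, 2.65 and 1.96 CPM in 65–79*PE. Here the 65–79*SE label went with the lowest values, under PBS without overlap. 65–79*PE rose against PBS by 2.14 ± 0.34 (adjusted p = 0.000699) on the log2 scale, and the libraries labelled 65–79*SE were lower than 65–79*PE, at -3.83 ± 0.45 (adjusted p = 5.34e-05). Their difference from PBS, -1.70 ± 0.50 (adjusted p = 0.109), did not pass the threshold, but did without the low-count filter (adjusted p = 0.00891 with edgeR).

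Ccl2 and Ccl7 draw monocytes through CCR2. Ccl2 in replicates 1–3 was at 9.47, 11.5 and 11.9 CPM in PBS, 46.9, 45.3 and 49.3 CPM in 65–79*SE and 31.2, 36.6 and 32.4 CPM in 65–79*PE. Both peptide arms lay well above PBS, and the gap between them was small but without overlap. Ccl2 rose by 2.13 ± 0.09 (adjusted p = 3.60e-10) with 65–79*SE and by 1.65 ± 0.09 (adjusted p = 7.85e-09) with 65–79*PE on the log2 scale, and the peptides differed by 0.48 ± 0.09 (adjusted p = 0.00124), under the fold threshold. Ccl2 in replicates 4–6 was at 15.9, 16.4 and 26.2 CPM in PBS, 13.0, 11.8 and 12.5 CPM under the 65–79*SE label and 51.7, 48.2 and 47.9 CPM in 65–79*PE. Only 65–79*PE stood apart upward here, and the libraries labelled 65–79*SE were below PBS without overlap. The log2 fold change was 1.33 ± 0.16 (adjusted p = 6.73e-05) for 65–79*PE against PBS and -1.98 ± 0.17 (adjusted p = 3.59e-06) for the libraries labelled 65–79*SE against 65–79*PE. Against PBS those libraries were not called in the main fit. They were called lower with DESeq2 (-0.65, adjusted p = 0.00655), with edgeR and a replicate block (-0.63, adjusted p = 0.0493) and with edgeR in 1 fit of 18 libraries (-0.65, adjusted p = 0.0149).

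Ccl7, the neighbour of Ccl2 on chromosome 11, was near 0 in PBS. Its replicates 1–3 stood at 0.280, 0.303 and 0.499 CPM in PBS, 13.2, 11.5 and 12.1 CPM in 65–79*SE and 4.76, 5.80 and 3.57 CPM in 65–79*PE. All 3 arms were separate. Ccl7 rose by 5.11 ± 0.23 (adjusted p = 3.95e-10) with 65–79*SE and by 3.74 ± 0.24 (adjusted p = 2.97e-08) with 65–79*PE on the log2 scale, and was higher in 65–79*SE than in 65–79*PE by 1.37 ± 0.16 (adjusted p = 4.81e-05). The values of replicates 4–6 were 0.216, 0.513 and 0.898 CPM in PBS, 0.238, 0.221 and 0.203 CPM under the 65–79*SE label and 4.75, 3.62 and 3.48 CPM in 65–79*PE. Under the 65–79*SE label Ccl7 was within or below the PBS range, and it rose in 65–79*PE by 2.88 ± 0.37 (adjusted p = 0.000135) on the log2 scale.

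Ccl3, Ccl4 and Ccl5 draw monocytes and T cells, and Ccl3 and Ccl5 bind CCR1. Ccl3 (MIP-1α) was abundant in every library: in replicates 1–3 it stood at 163, 194 and 199 CPM in PBS, 744, 656 and 749 CPM in 65–79*SE and 369, 396 and 368 CPM in 65–79*PE. The order was 65–79*SE, then 65–79*PE, then PBS, without overlap. Ccl3 rose by 1.98 ± 0.08 (adjusted p = 1.90e-10) with 65–79*SE and by 1.07 ± 0.08 (adjusted p = 1.40e-07) with 65–79*PE on the log2 scale, and the peptides differed by 0.91 ± 0.08 (adjusted p = 4.38e-06). The order turned round in replicates 4–6, with 262, 265 and 501 CPM in PBS, 162, 147 and 151 CPM under the 65–79*SE label and 213, 216 and 216 CPM in 65–79*PE. PBS was the highest arm. Ccl3 fell in 65–79*PE by 0.67 ± 0.19 (adjusted p = 0.0241) on the log2 scale, but without PBS replicate 6 the value was -0.30 and under the fold threshold, and without replicate 5 of every arm it was -0.84 (adjusted p = 0.0619 with edgeR). DESeq2 did not call this fall (-0.67, adjusted p = 0.0558). The libraries labelled 65–79*SE were lower than PBS, at -1.16 ± 0.20 (adjusted p = 0.0246).

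Ccl4 (MIP-1β), which starts 13.2 kb from Ccl3 on the other strand, encodes a near relative of it. Ccl4 stood in replicates 1–3 at 31.8, 37.3 and 36.8 CPM in PBS, 114, 109 and 119 CPM in 65–79*SE and 84.3, 90.5 and 98.1 CPM in 65–79*PE. Peptide arms were above PBS, and 65–79*SE was above 65–79*PE by a margin under the fold threshold. The log2 fold change was 1.71 ± 0.08 (adjusted p = 5.90e-10) for 65–79*SE against PBS, 1.40 ± 0.08 (adjusted p = 7.33e-09) for 65–79*PE against PBS and 0.31 ± 0.08 (adjusted p = 0.00959) between the peptides. Replicates 4–6 gave 42.4, 38.6 and 76.0 CPM in PBS, 26.6, 24.0 and 20.2 CPM under the 65–79*SE label and 47.4, 51.4 and 44.9 CPM in 65–79*PE. The libraries labelled 65–79*SE lay below both other arms, at -1.15 ± 0.21 (adjusted p = 0.0331) against PBS and -1.02 ± 0.21 (adjusted p = 0.00325) against 65–79*PE on the log2 scale. 65–79*PE and PBS overlapped, with a value of -0.13 ± 0.20 (adjusted p = 0.702) that became 0.24 without PBS replicate 6.

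Ccl5 (RANTES), which attracts T cells and eosinophils among others, showed the largest log2 difference between the peptides of the 10 members in replicates 1–3. Ccl5 stood in replicates 1–3 at 0.869, 1.09 and 1.12 CPM in PBS, 60.8, 52.7 and 50.6 CPM in 65–79*SE and 9.39, 10.01 and 9.66 CPM in 65–79*PE. The lowest 65–79*SE library was thus well above the highest 65–79*PE library. Ccl5 rose by 5.76 ± 0.12 (adjusted p = 1.47e-13) with 65–79*SE and by 3.28 ± 0.12 (adjusted p = 1.01e-10) with 65–79*PE on the log2 scale, and the peptides differed by 2.48 ± 0.09 (adjusted p = 2.83e-09). It was low in every arm of replicates 4–6, at 0.776, 0.710 and 2.06 CPM in PBS, 0.191, 0.221 and 0.542 CPM under the 65–79*SE label and 1.21, 1.13 and 0.990 CPM in 65–79*PE. So 65–79*PE with IFNγ, which carried an IFNγ response in both label sets, stood above PBS for Ccl5 in replicates 1–3 and overlapped PBS in replicates 4–6. The value there was -0.12 ± 0.42 (adjusted p = 0.884) and turned to 0.56 without PBS replicate 6. The libraries labelled 65–79*SE were lower than 65–79*PE, at -1.68 ± 0.52 (adjusted p = 0.0278), a call lost without replicate 4 (adjusted p = 0.150 with edgeR) or replicate 5 (adjusted p = 0.150). Those libraries were below PBS without overlap, but were not called against it in the main fit. They were called lower with edgeR in 1 fit of 18 libraries (-1.78, adjusted p = 0.0208) and without the low-count filter (-1.81, adjusted p = 0.000331).

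Cxcl2 (MIP-2) recruits neutrophils through CXCR2. Its replicates 1–3 were at 6.42, 10.9 and 14.0 CPM in PBS, 68.7, 55.7 and 65.6 CPM in 65–79*SE and 28.0, 29.0 and 25.4 CPM in 65–79*PE. The arms were separate and in the order seen for Ccl3. Cxcl2 rose by 2.63 ± 0.19 (adjusted p = 5.96e-08) with 65–79*SE and by 1.44 ± 0.19 (adjusted p = 3.04e-05) with 65–79*PE on the log2 scale, and the peptides differed by 1.19 ± 0.17 (adjusted p = 0.000275). Replicates 4–6 were at 17.5, 20.4 and 48.5 CPM in PBS, 9.39, 9.05 and 9.51 CPM under the 65–79*SE label and 22.9, 22.2 and 23.9 CPM in 65–79*PE. The libraries labelled 65–79*SE were tightly grouped and the lowest, at -1.63 ± 0.31 (adjusted p = 0.0381) against PBS and -1.30 ± 0.31 (adjusted p = 0.00730) against 65–79*PE on the log2 scale. The last call was lost without replicate 5 (adjusted p = 0.0589 with edgeR). 65–79*PE lay within the PBS range, at -0.33 ± 0.29 (adjusted p = 0.461), which turned to 0.28 without PBS replicate 6.

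Cxcl16 is a membrane-bound ligand of CXCR6 that also takes up oxidised lipids. It was at 35.1, 38.0 and 35.6 CPM in PBS, 165, 141 and 161 CPM in 65–79*SE and 63.5, 58.7 and 55.3 CPM in 65–79*PE in replicates 1–3. Every 65–79*SE library was far above every 65–79*PE library, and those in turn were above PBS. The log2 fold change was 2.13 ± 0.07 (adjusted p = 2.80e-11) for 65–79*SE against PBS, 0.75 ± 0.07 (adjusted p = 1.64e-06) for 65–79*PE against PBS and 1.38 ± 0.07 (adjusted p = 9.33e-08) between the peptides. Its values in replicates 4–6 were 15.8, 15.0 and 9.34 CPM in PBS, 30.4, 25.9 and 23.0 CPM under the 65–79*SE label and 59.8, 38.3 and 42.6 CPM in 65–79*PE. This was the one member above PBS in the libraries labelled 65–79*SE, by 0.99 ± 0.20 (adjusted p = 0.0477). That call was lost without PBS replicate 6 (adjusted p = 0.0663 with edgeR), as it was without replicate 5 (adjusted p = 0.245) or replicate 6 (adjusted p = 0.126) of every arm. 65–79*PE rose by 1.81 ± 0.20 (adjusted p = 4.36e-05), and the libraries labelled 65–79*SE were lower than it, at -0.82 ± 0.20 (adjusted p = 0.00739).

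Ccl9 (MIP-1γ), a mouse CCR1 ligand made by resting myeloid cells and osteoclasts, was lower with 65–79*PE than in PBS. Ccl9 in replicates 1–3 was at 209, 212 and 217 CPM in PBS, 283, 251 and 271 CPM in 65–79*SE and 121, 119 and 101 CPM in 65–79*PE. PBS lay between the peptide arms. Ccl9 fell with 65–79*PE by 0.87 ± 0.07 (adjusted p = 2.40e-07) on the log2 scale, was 0.36 ± 0.07 (adjusted p = 0.000544) with 65–79*SE and differed between the peptides by 1.22 ± 0.07 (adjusted p = 1.91e-07). Ccl9 in replicates 4–6 was at 236, 257 and 246 CPM in PBS, 255, 197 and 235 CPM under the 65–79*SE label and 245, 167 and 179 CPM in 65–79*PE. The arms overlapped, and no contrast passed the threshold: -0.10 ± 0.13 (adjusted p = 0.754) and -0.32 ± 0.13 (adjusted p = 0.0952) against PBS, and 0.23 ± 0.13 (adjusted p = 0.223) between the peptide labels.

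**Figure D2:**
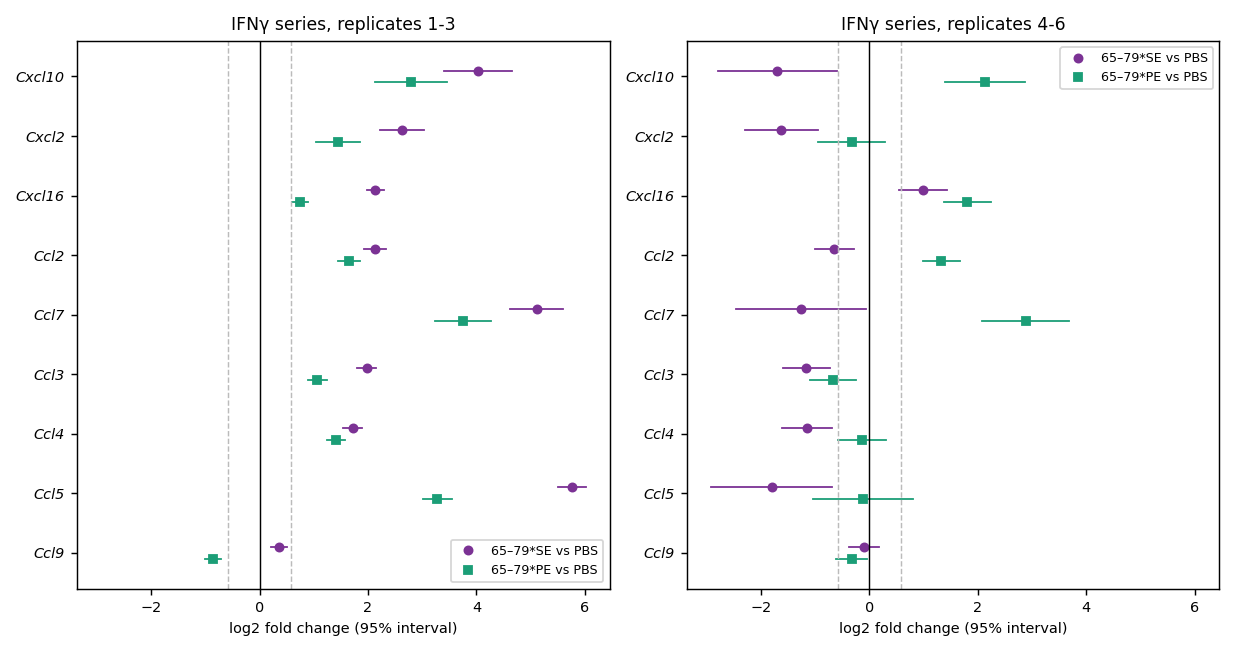
Log2 fold change against PBS in the IFNγ series for 9 members, with its 95% interval, for 65–79*SE (circles) and 65–79*PE (squares), by label set. Dashed lines mark the 1.5-fold threshold. Cxcl9 is left out because its PBS libraries were under the floor. In replicates 1–3 the 65–79*SE values lie to the right of the 65–79*PE values for all 9, and in replicates 4–6 to the left for all but Ccl9.

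Whether the contrasts differed between the label sets was tested by an interaction term. The libraries labelled 65–79*SE against PBS differed for 9 of 10 members, all but Cxcl9 with its PBS libraries under the floor, at an adjusted p under 0.05, where 35.7% of all genes did, with Ccl5 at -7.52 and Ccl7 at -6.33 on the log2 scale. Ccl9 in this test (-0.44, adjusted p = 0.0415 with edgeR) missed the threshold without replicate 1, 2, 3 or 5 or PBS replicate 6 (adjusted p from 0.0603 to 0.150). 65–79*SE against 65–79*PE differed for all 10, beside 28.8% of all genes. For 65–79*PE against PBS, where both sets carried the IFNγ response, 6 members differed, beside 11.5% of all genes. Ccl5 differed most, at -3.37 ± 0.40 (adjusted p = 6.14e-05), lower in replicates 4–6. Cxcl2 (-1.73), Ccl3 (-1.70) and Ccl4 (-1.50) also had lower log2 changes in replicates 4–6, and Cxcl16 (1.10) and Ccl9 (0.58) higher ones. Of these, Cxcl2 missed the threshold without replicate 1 (adjusted p = 0.0539), and Ccl9 missed it without replicate 1, 2, 3, 4 or 6 (adjusted p from 0.0532 to 0.151 with edgeR). No difference was shown for Cxcl10 (-0.63, adjusted p = 0.443 with edgeR, 95% interval -1.65 to 0.38), Ccl2 (-0.28, adjusted p = 0.389, -0.68 to 0.13) or Ccl7 (-0.81, adjusted p = 0.311, -1.83 to 0.21). Cxcl9 was not called, and no value is given because its PBS libraries were under the floor.

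Over all 6 replicates with the label set as a term, 3 members were called for 65–79*SE against PBS, Cxcl9, Cxcl16 (1.66 ± 0.30, adjusted p = 0.00619) and Ccl7 (3.17 ± 0.82, adjusted p = 0.0265), beside 3.57% of all genes. This count was 0 without replicate 1, 2 or 3 and 5 to 6 without replicate 4, 5 or 6. Calls over all genes moved with it, from 569 to 29, 14 and 16, and to 884, 785 and 1108, in the same order of settings. For 65–79*PE against PBS, 6 were called, beside 13% of all genes: Cxcl9, Cxcl10 (2.40), Cxcl16 (1.35), Ccl2 (1.43) and Ccl7 (3.27) higher and Ccl9 (-0.59) lower. The Ccl9 value lay at the fold threshold, and the call was lost with RLE factors, DESeq2, a filter of 10 counts or no label set term and without replicate 1, 2, 3 or 5, at -0.50 to -0.58. Between the peptides only Ccl9 was called, at 0.72 ± 0.15 (adjusted p = 0.00509) on the log2 scale, beside 3.19% of all genes. This comparison holds the libraries labelled 65–79*SE that lack the IFNγ response, and the label sets had opposite signs for the other 9 members.

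**Figure D3:**
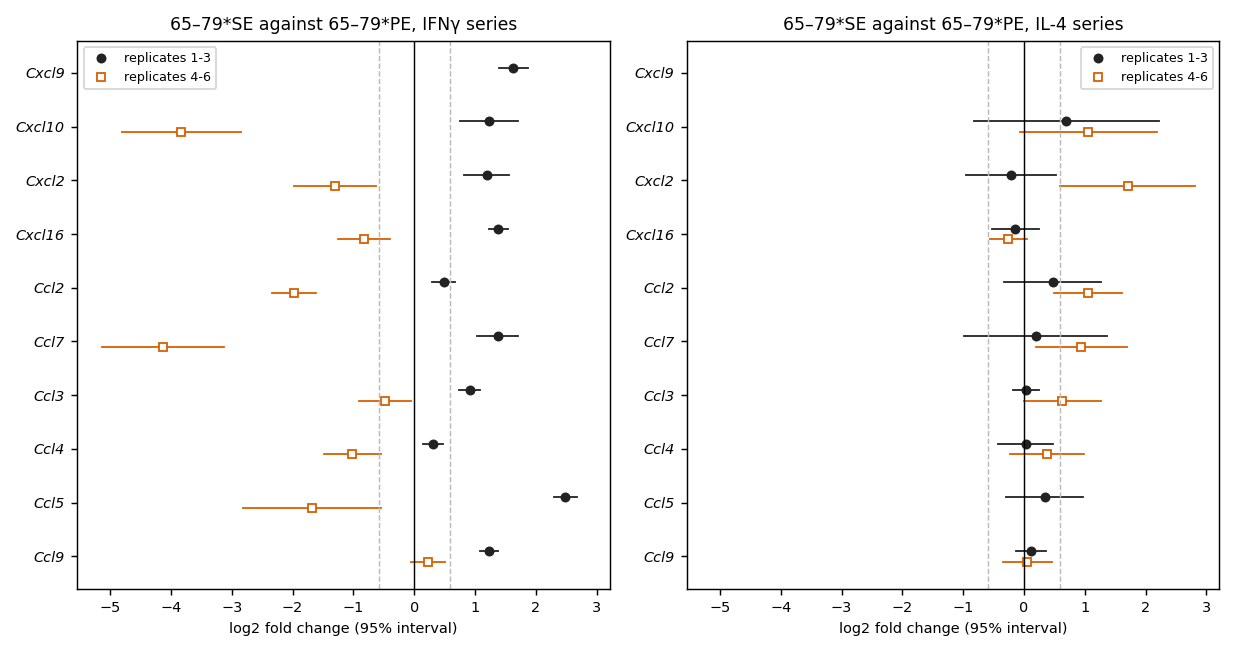
Log2 fold change of 65–79*SE against 65–79*PE with its 95% interval, in the IFNγ series (left) and the IL-4 series (right), for replicates 1–3 (filled circles) and 4–6 (open squares). Dashed lines mark the 1.5-fold threshold, and members with an arm under the floor are left out of a set. With IFNγ the 2 label sets lie on opposite sides of 0 for every member shown in both sets but Ccl9, and with IL-4 every interval of replicates 1–3 includes 0.

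With IL-4, Cxcl2 and Cxcl10 were called lower and Ccl5 and Ccl7 higher in at least 1 contrast against PBS. In replicates 1–3, 3 of the 9 members tested were called in 65–79*SE against PBS (Cxcl2 lower, Ccl5 and Ccl7 higher, where 6.44% of all genes were called) and 1 in 65–79*PE against PBS (Cxcl2 lower, where 3.95% were). In replicates 4–6, none of 8 members was called in 65–79*SE against PBS with edgeR, where 1.05% of all genes were, although 4 had an unadjusted p under 0.05 and DESeq2 called 1, Ccl7. In 65–79*PE against PBS 1 was called, Cxcl10 lower, where 2.24% of all genes were. Cxcl9 had 0 counts in all 18 libraries, which allows up to 0.176 CPM. The IL-4 targets Mgl2, a macrophage lectin, and Arg1 were present in both peptide arms, with Mgl2 at 48.0 to 64.2 and 22.1 to 31.0 CPM in the 65–79*SE label sets and at 60.4 to 77.9 and 35.9 to 44.3 CPM in 65–79*PE, beside at most 0.372 CPM in PBS.

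**Figure D4:**
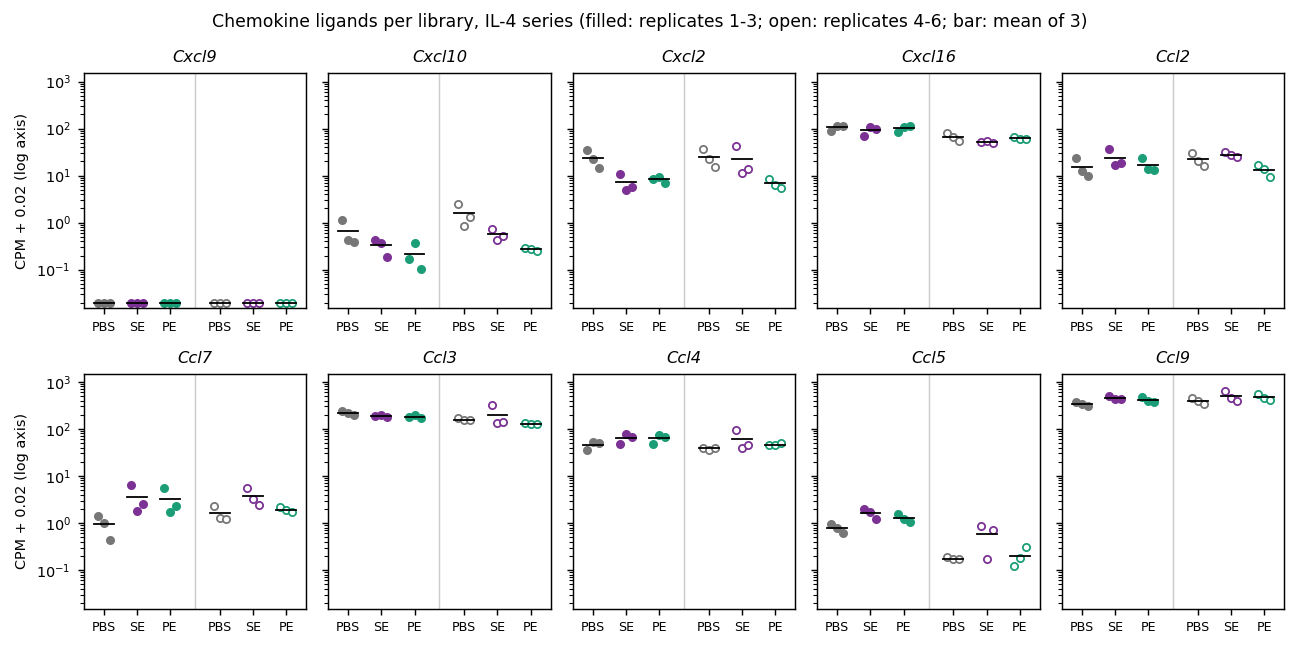
Level of each of the 10 chemokine ligands in every library of the IL-4 series, as CPM + 0.02 on a log axis, by arm. Filled points are replicates 1–3, open points replicates 4–6 and bars the mean of 3. Cxcl9 is at 0 throughout, Cxcl2 and Cxcl10 tend to be lower and Ccl7 higher in the peptide arms, and Ccl3 and Ccl9 stay near the top of the axis.

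Cxcl2 was called lower with both peptides in replicates 1–3. Cxcl2 in replicates 1–3 was at 34.5, 22.3 and 14.6 CPM in PBS, 11.0, 4.99 and 5.66 CPM in 65–79*SE and 8.61, 9.34 and 7.09 CPM in 65–79*PE. Every peptide library was below every PBS library. The log2 fold change was -1.67 ± 0.33 (adjusted p = 0.0104) with 65–79*SE and -1.46 ± 0.33 (adjusted p = 0.0218) with 65–79*PE. Cxcl2 in replicates 4–6 was at 37.5, 22.0 and 15.3 CPM in PBS, 42.4, 11.2 and 13.5 CPM in 65–79*SE and 8.63, 6.30 and 5.50 CPM in 65–79*PE. One 65–79*SE library, replicate 4, was as high as the highest PBS library. 65–79*PE lay below PBS without overlap at -1.86 ± 0.50 (adjusted p = 0.0806), and over all 6 replicates Cxcl2 fell in 65–79*PE by 1.66 ± 0.39 (adjusted p = 0.00800). 65–79*SE replicate 4 was also the highest of its set for Ccl3, Ccl4 and the interferon factor Irf7, the last of which ranged from 36.5 to 199 CPM in these 3 libraries.

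Cxcl10 was low throughout this series, at 2 to 46 counts per library. It was at 1.13, 0.400 and 0.372 CPM in PBS, 0.418, 0.347 and 0.168 CPM in 65–79*SE and 0.152, 0.344 and 0.0839 CPM in 65–79*PE in replicates 1–3. Replicates 4–6 of this series held 2.53, 0.846 and 1.29 CPM in PBS, 0.717, 0.405 and 0.499 CPM in 65–79*SE and 0.273, 0.253 and 0.229 CPM in 65–79*PE. The 65–79*PE libraries were under every PBS library in both sets. Cxcl10 fell in replicates 4–6 with 65–79*PE by 2.57 ± 0.46 (adjusted p = 0.0183), a call lost without replicate 5 (adjusted p = 0.256 with edgeR) or replicate 6 (adjusted p = 0.132). Over all 6 replicates it fell by 2.20 ± 0.39 (adjusted p = 0.000995) with 65–79*PE and fell by 1.29 ± 0.35 (adjusted p = 0.0308) with 65–79*SE, on the log2 scale.

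Ccl7 and Ccl5 were the members called higher, both with 65–79*SE. Ccl7 in replicates 1–3 was at 1.41, 0.960 and 0.409 CPM in PBS, 6.54, 1.78 and 2.47 CPM in 65–79*SE and 5.38, 1.72 and 2.31 CPM in 65–79*PE, with replicate 1 the highest in every arm. Peptide arms were above PBS and overlapped each other. It rose with 65–79*SE by 2.02 ± 0.60 (adjusted p = 0.0399) and was 1.82 ± 0.60 (adjusted p = 0.0768) with 65–79*PE. Ccl7 in replicates 4–6 was at 2.31, 1.24 and 1.19 CPM in PBS, 5.51, 3.24 and 2.34 CPM in 65–79*SE and 2.18, 1.84 and 1.72 CPM in 65–79*PE, and over all 6 replicates it rose with 65–79*SE by 1.58 ± 0.39 (adjusted p = 0.0198).

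Ccl5 was at 0.928, 0.760 and 0.595 CPM in PBS, 1.94, 1.69 and 1.17 CPM in 65–79*SE and 1.52, 1.21 and 1.05 CPM in 65–79*PE in replicates 1–3. Peptide libraries were above PBS without overlap, and Ccl5 rose with 65–79*SE by 1.12 ± 0.30 (adjusted p = 0.0280). It had in replicates 4–6 too few counts to be tested, at 0.165, 0.149 and 0.148 CPM in PBS, 0.851, 0.147 and 0.698 CPM in 65–79*SE and 0.102, 0.158 and 0.286 CPM in 65–79*PE. Each PBS library of that set held 3 counts, the level of the floor, beside 19, 4 and 14 counts in 65–79*SE, of which the library with 4 was no higher than PBS per M counts.

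These IL-4 calls rested on few libraries, as did calls over all genes. In replicates 1–3 the members called for both peptides against PBS fell to 0 without replicate 2 or replicate 3, and stood at 4 for 65–79*SE and 2 for 65–79*PE without replicate 1. Without replicate 2 or 3, calls over all genes fell from 795 to 27 and 35 for 65–79*SE. For 65–79*PE they fell from 488 to 51 and 44. The count of members in replicates 4–6 for 65–79*PE against PBS was 0 without replicate 5 or 6 and 2 without replicate 4. Over all genes, 4 and 61 were called without replicate 5 or 6 and 402 without replicate 4, beside 302 in the full set. Over all 6 replicates the count for 65–79*SE against PBS, 3 (Cxcl10, Ccl5 and Ccl7, beside 3.1% of all genes), was 0 without replicate 3, 1 without replicate 2, 5 or 6 and 4 without 65–79*SE replicate 4. That for 65–79*PE against PBS was 2, Cxcl10 and Cxcl2, beside 4.35% of all genes. Same-numbered libraries deviated together in replicates 1–3 of this series, and with the replicate number as a block the members called became 4 for 65–79*SE against PBS, with Ccl2 at 0.69 (adjusted p = 0.00201 with edgeR), and 3 for 65–79*PE against PBS, with Cxcl10 at -1.63 (adjusted p = 0.0442) and Ccl7 at 1.77 (adjusted p = 0.00269). The block gave 3 calls in replicates 4–6 for 65–79*PE against PBS, with Cxcl2 at -1.81 (adjusted p = 0.00803) and Ccl2 at -0.72 (adjusted p = 0.0151).

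The other members with IL-4 stayed closer to PBS. Ccl2, the monocyte attractant, was at 23.1, 12.8 and 9.67 CPM in PBS, 35.9, 16.5 and 18.2 CPM in 65–79*SE and 23.8, 13.9 and 13.1 CPM in 65–79*PE in replicates 1–3. Replicates 4–6 held 30.2, 20.8 and 15.9 CPM in PBS, 31.3, 27.4 and 25.2 CPM in 65–79*SE and 16.98, 13.7 and 9.502 CPM in 65–79*PE. There the 65–79*SE libraries were above the 65–79*PE ones without overlap, at 1.05 ± 0.25 (adjusted p = 0.593) on the log2 scale. Ccl9 was at 364, 337 and 303 CPM in PBS, 491, 424 and 425 CPM in 65–79*SE and 477, 385 and 369 CPM in 65–79*PE in replicates 1–3. It was higher in both peptide arms without overlap, by 0.47 ± 0.11 (adjusted p = 0.0203) for 65–79*SE, under the fold threshold. Ccl9 in replicates 4–6 ranged from 343 CPM in a PBS library to 629 CPM in a 65–79*SE library, and the arms overlapped.

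Ccl3, Ccl4 and Cxcl16 were not called in any contrast with IL-4. Ccl3 was at 241, 216 and 200.2 CPM in PBS, 186, 198 and 176 CPM in 65–79*SE and 179.6, 197 and 169 CPM in 65–79*PE in replicates 1–3, with log2 fold changes of -0.18 and -0.21 against PBS. Ccl4 was at 36.0, 51.8 and 50.8 CPM in PBS, 47.0, 77.3 and 66.6 CPM in 65–79*SE and 46.9, 72.6 and 67.8 CPM in 65–79*PE, with 0.51 and 0.49. Cxcl16 was at 87.1, 116 and 115 CPM in PBS, 67.9, 109 and 99.9 CPM in 65–79*SE and 85.0, 106 and 114 CPM in 65–79*PE, with -0.15 and -0.01. All peptide libraries were under PBS for Ccl3, while arms overlapped for Ccl4 and Cxcl16, and replicate 1 of each arm was the lowest for both. Ccl3 in replicates 4–6 was at 169, 154 and 151 CPM in PBS, 322, 131 and 141 CPM in 65–79*SE and 136, 124 and 124 CPM in 65–79*PE, and Ccl4 at 39.0, 36.0 and 40.0, then 95.8, 39.1 and 45.0, then 45.3, 44.4 and 48.9 CPM in that order of arms, with 65–79*SE replicate 4 the highest for both. The log2 changes of these 3 genes against PBS in this set lay between -0.37 for Cxcl16 and 0.65 for Ccl4, both with 65–79*SE.

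With IL-4 no member was called between the peptides. In replicates 1–3 edgeR called 0 of 9 members and 0 of 12350 genes (0% of all genes), no member had an unadjusted p under 0.05 and DESeq2 called 0. The 95% interval of the log2 difference was -0.18 to 0.24 for Ccl3, -0.13 to 0.37 for Ccl9, -0.43 to 0.48 for Ccl4 and -0.53 to 0.25 for Cxcl16, and was wider for Cxcl2 (-0.95 to 0.53), Ccl2 (-0.33 to 1.27), Ccl5 (-0.29 to 0.98), Ccl7 (-0.99 to 1.37) and Cxcl10 (-0.83 to 2.22). With the replicate number as a block, which pairs these libraries, edgeR again called 0 of 9 members, with adjusted p from 0.474 to 0.933, and 1 member had an unadjusted p under 0.05. That member was Ccl2, at 0.44 with a 95% interval of 0.20 to 0.69, higher in 65–79*SE than in 65–79*PE in each of the 3 pairs. For replicates 4–6 edgeR called 0 of 8 members and 0 of 13472 genes (0% of all genes), while 3 members, Cxcl2, Ccl2 and Ccl7, had an unadjusted p under 0.05 and DESeq2 called 1, Ccl2. Over all 6 replicates 0 of 9 members were called by edgeR or DESeq2, 4 had an unadjusted p under 0.05, and 0.00741% of all genes were called. The contrasts did not differ between the label sets for any member at an adjusted p under 0.05 with edgeR, with 1 member (Cxcl2) at an unadjusted p under 0.05 for 65–79*SE against PBS, 0 for 65–79*PE against PBS and 1 (Cxcl2) between the peptides, where 4.39%, 0.00705% and 0% of all genes passed. Such a result does not show that the label sets or the peptides act alike.

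The difference between the peptides was then compared between the cytokines in the 12 peptide libraries of replicates 1–3, where both IFNγ arms carried the response. The IFNγ check genes themselves differed between these arms: 5 of the 8 were called, 4 higher and 1 lower in 65–79*SE than in 65–79*PE, beside 6.08% of all genes. Their part in the results was not tested. The log2 difference of 65–79*SE from 65–79*PE was larger with IFNγ than with IL-4 for 5 of the 10 members at an adjusted p under 0.05, beside 7.09% of all genes. Ccl5 differed by 2.10 ± 0.24 (adjusted p = 0.000371), Cxcl16 by 1.49 ± 0.21 (adjusted p = 0.00109), Cxcl2 by 1.36 ± 0.29 (adjusted p = 0.0123), Ccl9 by 1.07 ± 0.14 (adjusted p = 0.000904) and Ccl3 by 0.84 ± 0.11 (adjusted p = 0.000760). Ccl3, Ccl5 and Ccl9 of these bind CCR1, and Cxcl2 and Cxcl16 bind other receptors. For Cxcl10 (0.50, 95% interval -0.77 to 1.76), Ccl7 (1.14, -0.07 to 2.36), Ccl4 (0.25, -0.25 to 0.75) and Ccl2 (-0.02, -0.76 to 0.71) no difference was shown, and no value is given for Cxcl9, which had 0 counts with IL-4. The count was 6 without replicate 1, 4 without replicate 2 and 1 without replicate 3. The 12 libraries carry the same letters in both series, and the main fit treated them as separate.

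Per kilobase of exon, which allows levels of different genes to be set side by side, Ccl3 had the highest mean of the members in all 12 groups of 3 libraries, although its range overlapped that of Ccl9 in both peptide arms of IL-4 replicates 4–6. In IFNγ replicates 1–3 it stood at 242 CPM per kb in PBS and 935 in 65–79*SE, followed in 65–79*SE by Ccl4 at 172, Ccl9 at 88.1, Ccl5 at 57.0 and Cxcl16 at 51.6 CPM per kb, of which the ranges of Ccl5 and Cxcl16 overlapped. Ccl5 was the 4th member in 65–79*SE and the 7th in PBS and in 65–79*PE of that set. Cxcl9 was the lowest in PBS at 0.00310 CPM per kb and 8th in both peptide arms, where Cxcl10 was the lowest, at 3.21 CPM per kb in 65–79*SE and 1.35 in 65–79*PE. Together the 10 members took 0.0562% of the counts in PBS, 0.0847% in 65–79*PE and 0.169% in 65–79*SE of IFNγ replicates 1–3, and 0.0630%, 0.0540% and 0.0387% of replicates 4–6. Ccl3 and Ccl9 made up 65.3 to 84.0% of these member counts in every group of the study.

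The remaining chemokine ligands, a list of 27, were mostly too low to test. With IFNγ 8 passed the filter in replicates 1–3, and 6 rose with 65–79*SE and 4 with 65–79*PE against PBS, while 6 were called higher in 65–79*SE than in 65–79*PE, where 12.6%, 10.3% and 4.48% of all genes were called higher. Cxcl11, the remaining CXCR3 ligand, was at 7.70 to 9.68 CPM in 65–79*SE and 2.29 to 3.09 CPM in 65–79*PE with 0 counts in PBS, which put it at least 98.3-fold and 29.2-fold higher. Ccl12, a CCR2 ligand, was likewise at 0 counts in PBS and at 4.46 to 4.82 and 1.76 to 2.15 CPM in the peptide arms. Ccl6, a CCR1 ligand beside Ccl9, rose from 1.34 to 1.64 CPM in PBS to 18.3 to 20.99 CPM with 65–79*SE (3.69 on the log2 scale, adjusted p = 1.24e-11 with edgeR). Of 6 tested in replicates 4–6, 3 rose with 65–79*PE, again Ccl12, Cxcl11 and Ccl6, where 10.8% of all genes were called in either direction. In the libraries labelled 65–79*SE against PBS, 0 were called with edgeR, beside 0.72% of all genes, and 1, Pf4, had an unadjusted p under 0.05. With IL-4, Ccl6 rose in both arms and both label sets, by 2.65 (65–79*SE) and 2.31 (65–79*PE) in replicates 1–3 and by 1.93 and 1.93 in replicates 4–6 on the log2 scale, and it was the only one of 4 tested that was called in them. In the same order, 6.44%, 3.95%, 1.05% and 2.24% of all genes were called.

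Receptors of the members were expressed at low to moderate levels, and 5 of 10 could be tested with IFNγ. In replicates 1–3, 4 rose and 1 fell with 65–79*SE against PBS, beside 22.8% of all genes called. Among the 4 that rose, Ccrl2 is an atypical receptor that binds chemerin, which is not a member. It went from 3.85 to 6.33 CPM in PBS to 41.4 to 50.3 CPM in 65–79*SE and 13.6 to 16.3 CPM in 65–79*PE (3.20 and 1.56 on the log2 scale). Cxcr3, the receptor of Cxcl9 and Cxcl10, fell from 2.31 to 2.76 CPM to 0.318 to 0.755 CPM with 65–79*SE and 0.881 to 1.01 CPM with 65–79*PE (-2.27 and -1.37). It was also called lower in 65–79*PE of replicates 4–6, at -1.43 on the log2 scale.

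Of 18 factors of transcription and mRNA decay, all tested, 10 rose and 1 fell with 65–79*SE against PBS in IFNγ replicates 1–3, and 8 rose and 3 fell with 65–79*PE, where 22.8% and 19.8% of all genes were called in either direction. Between the peptides, 4 of the 18 were called higher and 1 lower in 65–79*SE than in 65–79*PE, beside 6.08% of all genes in either direction. Irf1, a transcriptional activator of interferon-responsive genes, was the 1 called lower, at -0.65 (adjusted p = 5.81e-05 with edgeR). It stood at 64.5 to 73.0 CPM with 65–79*SE and 98.4 to 116 CPM with 65–79*PE. The part of these factors in the chemokine levels was not tested. Irf7, which amplifies type I interferon, was instead higher with 65–79*SE (239 to 247 CPM) than with 65–79*PE (82.0 to 101 CPM), at 1.40 on the log2 scale. Tnfaip3, a brake on NF-κB, and Zfp36, which promotes decay of AU-rich mRNAs, were also called higher with 65–79*SE than with 65–79*PE, at 1.28 and 0.89. In the libraries labelled 65–79*SE of replicates 4–6, 2 of the 18 were called lower than in PBS, Irf7 and Tnfaip3, beside 0.72% of all genes. Without replicate 5 no gene was called in that contrast. Irf1 was at 13.0 to 14.6 CPM in those libraries, which takes in the whole PBS range of 13.6 to 14.4 CPM. With IL-4 the list gave 1 call in replicates 1–3 for either peptide against PBS, Socs1, a feedback inhibitor of cytokine receptors, and 1 of 18 is near the 6.44% and 3.95% of all genes called there.

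For 6 of the members the genes with the most similar pattern were sought among 9098 genes of at least 10 CPM with IFNγ and 8761 with IL-4, by Pearson r of log2 CPM over 18 libraries after the label set mean was taken out. These points share their libraries, and in the IFNγ series they fall into responding and non-responding libraries, so r is a measure of likeness only. With IFNγ, Cxcl9 was most like Gbp2 (r = 0.997), Sp140 (0.995) and Gbp3 (0.995), Cxcl10 most like Sqstm1 (0.979), and Ccl2 most like Ifi202b (0.994) and Ptgs2 (0.993). Cxcl2 was most like Oasl1 (0.982) and Ccl5 most like Plk2 (0.980). Ccl9 was most like Il1rn (0.955). In the IL-4 series the likeness was lower, with Slc1a4 for Cxcl2 (0.939), Ube2d-ps and Atf3 for Ccl9 (0.912 and 0.908), Tcta for Ccl2 (0.897), Sesn2 for Cxcl10 (0.856) and Hilpda for Ccl5 (0.824). Among the members themselves, r with IFNγ was 0.99 for Ccl2 with Ccl7 and 0.96 for Cxcl2 with Ccl3, while Ccl9 lay between -0.21 and 0.23 with the other 9. With IL-4, r of Ccl9 was 0.85 with Ccl7 and lay between -0.32 and 0.57 with the other 7 that had counts.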

How the data were processed

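Counts per gene were deposited by the authors as whole numbers, 1 table per series of 18 libraries. Per the labels and the study's methods, poly(A) RNA was made into TruSeq libraries, sequenced single-end, and uniquely aligned reads were counted with featureCounts on GRCm38.p5 with GENCODE M12, pooling no replicates. The aligner and strand setting are not given in the sources used here. The submitters' processing notes name DESeq2 1.16.1 under R 3.4.1.

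Counts were tested with edgeR 4.0.16 (R 4.3.3, limma 3.58.1; TMM, filterByExpr, quasi-likelihood) over all genes, within replicates 1–3 and 4–6, over all 6 with a label set term, and as interactions, with Benjamini-Hochberg adjustment over all genes tested. Calls needed an adjusted p under 0.05 and a fold over 1.5, and interactions the adjusted p alone. Self-tests ran on simulated data. Alternatives were DESeq2 1.42.0, RLE factors, other low-count filters, a replicate block, 1 fit of 18 libraries, no label set term and leaving out replicates. Per-library folds were set against a floor of 3 counts where a group lay under it. Total counts of 17.05 to 63.16 M per library set the precision, and intervals cover the spread between libraries.

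The members and lists were chosen with earlier results of these data known. Every member is reported. From the other lists, the genes named are those with the largest changes among those called, plus treatment genes, and Irf1, Irf7 in the IL-4 series, Pdgfra, Mpo, Cd274 and Pf4, which were chosen after their values were seen. The study describes the 6 replicates as biological, from 2 experiments. If the label sets are those experiments, each test within a set rests on 3 cultures per arm of a single experiment. Library labels run in order across the arms within a replicate number, except in IL-4 replicates 4–6, where numbers restart in each arm. They name no shared day, batch or culture, so p-values measure the spread between these cultures. In replicates 1–3 the same library letters stand in both series: A, I and Q for PBS, G, O and W for 65–79*SE, H, P and X for 65–79*PE. Their counts differ, and whether such libraries share a culture is not stated. PBS libraries were left out of the comparison between cytokines for that reason, while its peptide libraries also carry shared letters. Whether equal replicate numbers pair the libraries was checked by the correlation of deviations from the group means over genes. Every pair passed 0.1 in IL-4 replicates 1–3 (0.133 to 0.509), between PBS and 65–79*PE in IL-4 replicates 4–6 (0.214 to 0.437) and between the peptide labels in IFNγ replicates 4–6 (0.101 to 0.155), and not elsewhere. Gene positions are from GENCODE M21, which held 95.25% of the names. Levels were never tested across the 2 tables.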

Additional observations from a re-analysis of the deposited data

Results flagged for a closer look

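Single libraries far from the others of their group of 6 were sought on the scale of log2(CPM + 0.1) in 57 groups, of which chance marks about 1 in 20, and 2 were found. In the IFNγ series, Ccl4 was at 76.0 CPM in PBS replicate 6, beside 42.4 CPM in the next PBS library, a gap of 0.671 of the range on that scale. In the IL-4 series, Ccl7 was at 5.38 CPM in 65–79*PE replicate 1, beside 2.31 CPM in the next, a gap of 0.745 of the range on that scale.

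The log2 difference between 65–79*SE and 65–79*PE was larger with IFNγ than with IL-4 in replicates 1–3 for 5 members by an interaction term in edgeR. It was larger by 2.10 for Ccl5 (standard error 0.24, adjusted p = 0.000371), by 1.49 for Cxcl16 (standard error 0.21, adjusted p = 0.00109) and by 1.36 for Cxcl2 (standard error 0.29, adjusted p = 0.0123). It was larger by 1.07 for Ccl9 (standard error 0.14, adjusted p = 0.000904) and by 0.84 for Ccl3 (standard error 0.11, adjusted p = 0.00076). The cytokines were counted in separate tables, so cytokine and series cannot be told apart. Leaving out replicate 3 left 1 of these 5 calls.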

How the results depend on the processing

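All values here are counts of members called, or log2 fold changes where named, and the cause of a change was not tested except where stated. In IFNγ replicates 1–3, the counts of 9, 10 and 8 kept within 1.5 times their value under every alternative. Without the low-count filter the counts became 7 for the libraries labelled 65–79*SE against PBS in IFNγ replicates 4–6, 6 for 65–79*SE against PBS and 2 between the peptides over all 6 IFNγ replicates. In the IL-4 series that setting gave 2 for 65–79*PE against PBS in replicates 1–3, 3, 3 and 2 for 65–79*SE against PBS, 65–79*PE against PBS and between the peptides in replicates 4–6, 2 between the peptides over all 6, and 1 for each of the 3 differences between label sets. Requiring 10 counts in every library, which by construction tests fewer members, gave 3 for 65–79*PE against PBS and 4 between the peptides in IFNγ replicates 4–6, 1 (65–79*SE) and 2 (65–79*PE) against PBS over all 6 IFNγ replicates, 6 for the label set difference between the peptides, and with IL-4 0 for 65–79*PE against PBS in replicates 4–6 and 1 for each peptide against PBS over all 6. Without the label set term the counts over all 6 were 1, 3 and 0 with IFNγ (65–79*SE against PBS, 65–79*PE against PBS, between the peptides) and 0 and 1 with IL-4 (each peptide against PBS). DESeq2 with IL-4 gave 2 for 65–79*PE against PBS in replicates 1–3, and 1, 2 and 1 for 65–79*SE against PBS, 65–79*PE against PBS and between the peptides in replicates 4–6. One fit of all 18 IL-4 libraries gave 0 for 65–79*PE against PBS in replicates 1–3 and 2 in replicates 4–6.

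With the replicate number as a block, the IL-4 counts became 3 for 65–79*PE against PBS in replicates 1–3, 2 for 65–79*SE against PBS and 3 for 65–79*PE against PBS in replicates 4–6, and 1 for the label set difference of either peptide against PBS. Ccl5 for 65–79*PE against PBS in IFNγ replicates 4–6 turned to 0.0283 under the block. Where numbers did not pair by the check, they are only a shared number. A library correlated best with its own number in 4 and 9 of 18 cases with IFNγ (replicates 1–3 and 4–6) and in 14 and 12 of 18 with IL-4. Cxcl16 with 65–79*PE against PBS in IL-4 replicates 1–3, at -0.01, turned to 0.000915 with RLE factors and 0.00116 with DESeq2.

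Leaving out replicates moved the counts from 0 to 6 for 65–79*SE against PBS over all 6 IFNγ replicates and from 0 to 4 in IFNγ replicates 4–6. Calls over all genes ran from 14 to 1108 in the former, and were 0 without replicate 5 in the latter. With IL-4 the counts of members ran from 0 to 4 for 65–79*SE against PBS in replicates 1–3 and over all 6, and from 0 to 2 for 65–79*PE against PBS in each label set. The count for the difference between cytokines ran from 1 to 6. Log2 fold changes that changed sign, all of members not called, ran for 65–79*PE against PBS in IFNγ replicates 4–6 from -0.36 to 0.29 for Ccl4, from -0.44 to 0.64 for Ccl5 and from -0.59 to 0.28 for Cxcl2, and for the 65–79*SE label from -0.22 to 0.0331 for Ccl9. With IL-4 and 65–79*SE against PBS in replicates 4–6 they ran from -0.21 to 0.53 for Ccl3 and from -1.01 to 0.0818 for Cxcl2, the low ends without 65–79*SE replicate 4. With 65–79*PE against PBS Cxcl16 ran from -0.0367 to 0.0351 in replicates 1–3 and from -0.20 to 0.0125 in replicates 4–6. Between the peptides Ccl4 ran from -0.0199 to 0.0586 and Cxcl2 from -0.63 to 0.0815 in replicates 1–3, and Ccl4 from -0.15 to 0.59 and Ccl9 from -0.16 to 0.11 in replicates 4–6. The settings without PBS replicate 6 (IFNγ) and without 65–79*SE replicate 4 (IL-4) were chosen after seeing the data.

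Depth limits Cxcl9 with IL-4 and Ccl5 in IL-4 replicates 4–6, which had libraries at or near the floor of 3 counts.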
